A study of Mus musculus with 16 samples.

Results

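The Myc, Max and Mxd network is a family of basic helix-loop-helix leucine zipper transcription factors, and its 10 mouse genes were followed here through switching on and then blocking of the ERK pathway in embryonic stem cells. The members were the Myc genes (Myc, Mycn and Mycl), their obligate partner Max, the Mxd genes (Mxd1, Mxd3, Mxd4 and Mxi1, the last also known as Mxd2), Mnt and Mga. They were chosen by symbol, and all 10 were found among the 52636 gene identifiers of the count table. All 10 also passed the filter on low counts, as did 12215 genes in all.

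The 16 RNA-seq libraries, made after removal of ribosomal RNA, came from mouse embryonic stem cells carrying an inducible construct that activates ERK when 4-hydroxytamoxifen (4OHT) is added. The line is grown in 2i/LIF, a medium that holds a MEK inhibitor (PD03), a GSK3 inhibitor (Chir) and LIF. Before sampling, the cells of every group, controls included, spent 48 h with the FGF receptor inhibitor PD17 at 250 nM in place of PD03. The 0h group received no 4OHT, the 2h and 4h groups received it at 250 nM for 2 h and 4 h, and the rev group received it for 4 h followed by 2 h of a MEK inhibitor. Clone 4 and clone 8 gave 2 replicates each to every group, so the 4 samples of a group come from 2 clonal lines. The labels name no group given the vehicle of 4OHT and none kept for 6 h without the MEK inhibitor, so the effects of solvent and of time in culture cannot be told apart from those of ERK.

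The Myc proteins bind DNA as dimers with Max at E-box sequences and recruit histone acetyltransferases and elongation factors, which raises transcription of genes for ribosome production, metabolism and growth. The Mxd proteins and Mnt compete for the same partner and the same sites and bring in Sin3 and histone deacetylases, which lowers transcription. Mga pairs with Max inside the Polycomb complex PRC1.6, which keeps germline genes silent in embryonic stem cells. In these cells Mycn and Myc are both known to sustain proliferation, and Myc is a known immediate early target of ERK signalling as well as a target of LIF.

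Depth, as the total count of a library, ran from 2172651 to 12680303 (median 6502783). Between 42.01% and 80.4% of a library's counts fell in 8 abundant gene models, with the highest share in the rev library of clone 8 replicate 2 (80.4%), which stands apart. The TMM factors that correct for this ranged from 0.463 to 1.47. Summed levels of 6 embryonic stem cell markers (Pou5f1, Sox2, Nanog, Zfp42, Esrrb and Klf4) lay between 986 and 1338 CPM (counts scaled to the library's TMM-corrected total) in every library, a sum in which single markers differed: Nanog averaged 393.5 CPM at 0h, 250 at 4h and 392.5 in rev, and Sox2 172, 226 and 180.2. Summed levels of 5 feeder fibroblast markers lay between 1.87 and 7.66 CPM, with Postn at 0 counts in all 16 libraries, and those of 5 primitive endoderm markers between 3.26 and 6.76 CPM. The 4 trophoblast markers summed to 32.4 to 49.8 CPM at 0h, 23.8 to 42.7 at 2h, 21.5 to 37.97 at 4h and 28.7 to 43.5 in rev, most of it Tfap2c, with Cdx2 at means of 1.32 CPM at 0h and 4.73 at 4h and Elf5 at 0.597 or less. The part of these marker levels in the results was not tested.

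Of the 4 members that were called higher at 2h, at 4h and still in rev against 0h (Myc, Mycn, Max and Mnt), promoters are shown for the 3 with a matched RefSeq window, Mycn, Max and Mnt. Windows were matched for 9 of the 10 members, all but Myc. Each sequence is from GRCm38.p6, 5′ to 3′ on the gene's own strand, and lies wholly upstream of the gene's GENCODE M21 span. Capitals mark an E-box, CACGTG, the site bound by Myc and Max dimers.
Mycn, chr12:12941915-12942086, minus strand: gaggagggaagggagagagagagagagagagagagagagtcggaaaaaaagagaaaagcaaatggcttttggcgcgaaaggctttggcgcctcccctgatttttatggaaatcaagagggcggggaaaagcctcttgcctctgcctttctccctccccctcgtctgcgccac
Max, chr12:76962249-76962498, minus strand: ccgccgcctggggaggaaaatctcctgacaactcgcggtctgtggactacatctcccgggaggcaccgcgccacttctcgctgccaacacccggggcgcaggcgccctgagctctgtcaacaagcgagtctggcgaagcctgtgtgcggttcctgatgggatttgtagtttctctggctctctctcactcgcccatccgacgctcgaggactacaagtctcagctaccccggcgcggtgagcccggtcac
Mnt, chr11:74830674-74830919, plus strand: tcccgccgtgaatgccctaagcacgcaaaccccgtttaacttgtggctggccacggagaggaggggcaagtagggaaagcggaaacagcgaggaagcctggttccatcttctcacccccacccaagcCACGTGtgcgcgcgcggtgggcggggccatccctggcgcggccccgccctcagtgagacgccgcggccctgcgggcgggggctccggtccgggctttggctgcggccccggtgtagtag
The 250 bases before each RefSeq start were searched on both strands for the E-box CACGTG, for the ETS core CCGGAA (an element of factors that ERK phosphorylates) and for the cAMP response element TGACGTCA. Of the 11 windows of the 9 matched members, 2 held an E-box, those of Mnt and Mxd4, with 1 copy each. Neither of the other motifs was found in the 11 windows. Among all 32851 windows of the table, 6.02% held the E-box, 12.03% the ETS core and 1.55% the cAMP response element. These matches describe letters only, and the windows of Mycn and Max held no match to the 3 motifs.

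Across the network, 5 of the 10 members changed after 2 h of 4OHT and 5 after 4 h, from a 31.1-fold rise of Myc to changes of Mycn, Mycl, Max and Mnt that stayed under 1 on the log2 scale. At 2h, 4 members were higher than at 0h (Myc, Mycn, Max and Mnt) and 1 was lower (Mycl), where 11.4% of all tested genes were called higher and 9.68% lower. At 4h, 4 were higher and 1 lower, the same genes in the same directions, where 17.2% of all genes were higher and 16.8% lower. The remaining 5 members, Mxd1, Mxd3, Mxd4, Mxi1 and Mga, had no call at either time. A call means an adjusted p under 0.05 by edgeR's quasi-likelihood test with Benjamini-Hochberg adjustment over the 12215 genes. The median log2 fold change of the members was -0.01 at 2h and 0.02 at 4h, against -0.02 at both times over all genes. The comparisons with 0h share the 0h samples, so the matching directions at 2h and 4h are not independent of each other. In these bulk samples, fewer cells of a type and less RNA per cell cannot be told apart.

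**Figure D1:**
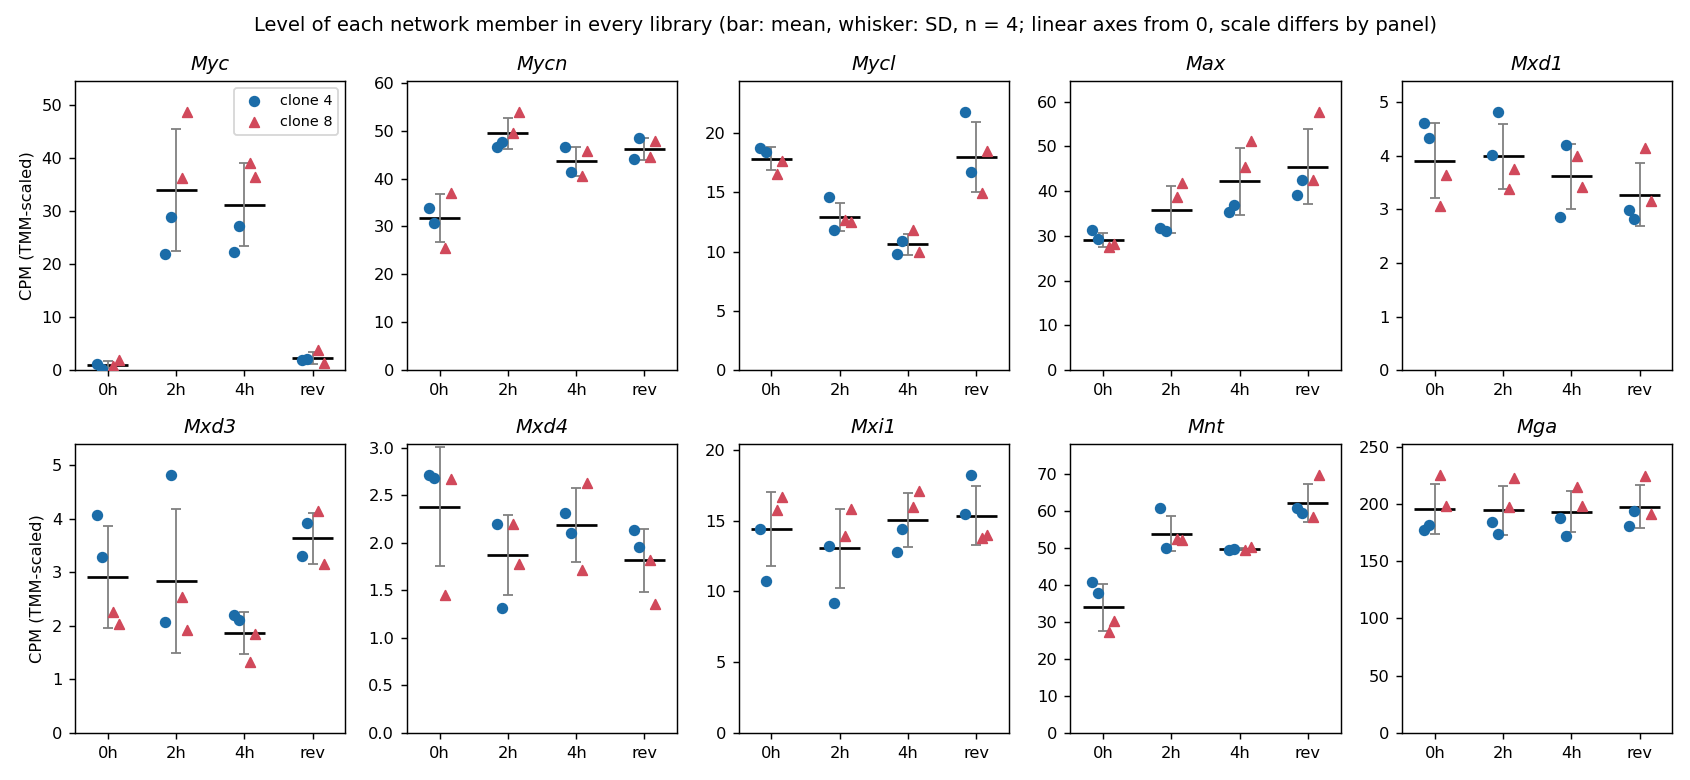
Level of each of the 10 members in every library, in TMM-scaled CPM on linear axes from 0, for 0h, 2h, 4h and rev. Circles are clone 4, triangles clone 8, horizontal bars the group mean and whiskers the SD (n = 4). Myc lies at 0.298 to 1.92 CPM at 0h and at 21.9 to 48.6 CPM at 2h, while Mga lies between 172 and 225.5 CPM in all 16 libraries.

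Myc (ENSMUSG00000022346, GRCm38 chr15:61985391-61990374, plus strand) encodes c-Myc, the member known for the fastest response to growth signals. At 0h its level was 1.09, 0.298, 0.804 and 1.92 CPM in clone 4 replicates 1 and 2 and clone 8 replicates 1 and 2, from only 4, 2, 5 and 18 counts. At 2h it was 21.9, 28.9, 36.2 and 48.6 CPM in the same order, and at 4h 22.2, 27.2, 39.1 and 36.3 CPM. No induced library overlapped any 0h library. The log2 fold change at 2h was 4.96 ± 0.21 (SE), or 31.1-fold higher, with an adjusted p of 3.26e-19. At 4h it was 4.88 ± 0.21, or 29.4-fold higher, with an adjusted p of 9.68e-19. Because the 0h counts are so few, the size of this fold is less firm than its direction, and leaving out single libraries or changing the analysis in 26 ways gave log2 values from 4.75 to 5.53 at 2h, all called. Between 2h and 4h Myc had no call, with a log2 difference of -0.08 and an adjusted p of 0.755.

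After 2 h of the MEK inhibitor Myc was at 1.92, 2.17, 3.81 and 1.35 CPM, from 18, 10, 23 and 3 counts, and every rev library lay below every 4h library. The fall from 4h was 12.2-fold, with a log2 fold change of -3.60 ± 0.19 and an adjusted p of 3.45e-16. This undid 73.9% of the log2 change seen at 4h, a ratio of changes that share the 4h libraries. The ratio also rests on the few 0h counts and is no firmer than the fold at 4h. In CPM the means were 1.03 at 0h, 31.2 at 4h and 2.31 in rev. The rev group was still higher than 0h by 1.27 ± 0.37 on the log2 scale, with an adjusted p of 0.0117, although the groups overlapped. That remainder was not firm, since its adjusted p became 0.0724 without clone 8 replicate 1 of rev and 0.188 without clone as a covariate, with a range of 0.00394 to 0.188 over the 26 alternatives. Within clone 4 alone it was 1.76 (adjusted p = 0.0811) and within clone 8 alone 1.08 (adjusted p = 0.136).

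Mycn (ENSMUSG00000037169, chr12:12936093-12941914, minus strand) encodes N-Myc, which drives proliferation of embryonic and neural progenitors. Its level at 0h was 33.9, 30.7, 25.4 and 37.0 CPM, and at 2h 46.6, 47.7, 49.6 and 53.9 CPM, with no overlap. The 2h change was 0.64 ± 0.09 on the log2 scale, with an adjusted p of 2.28e-06. At 4h the level was 46.6, 41.5, 40.6 and 45.8 CPM, again above every 0h library, with a change of 0.45 ± 0.09 and an adjusted p of 0.000294. In rev it was 44.0, 48.4, 44.4 and 47.8 CPM. The rev group did not pass the test against 4h (log2 difference 0.07, adjusted p = 0.663) and was higher than 0h by 0.52 ± 0.10 (adjusted p = 0.000139).

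Mycl (ENSMUSG00000028654, chr4:122995652-123002485, plus strand) encodes L-Myc, a weaker activator than the other Myc proteins, and it moved the opposite way. It fell from 18.7, 18.3, 16.6 and 17.6 CPM at 0h to 14.6, 11.8, 12.67 and 12.5 CPM at 2h and to 9.79, 10.9, 11.8 and 9.998 CPM at 4h. Every induced library lay below every 0h library. The log2 fold change was -0.44 ± 0.11 at 2h (adjusted p = 0.00539) and -0.77 ± 0.12 at 4h (adjusted p = 8.63e-06). In rev it was 21.8, 16.7, 14.9 and 18.5 CPM, above every 4h library. The rise from 4h was 0.79 ± 0.13 (adjusted p = 2.35e-05), which undid 102% of the 4h change, again over shared 4h libraries, and rev against 0h gave 0.02 with an adjusted p of 0.936. With library size alone the rise was 0.35 (adjusted p = 0.291, the highest of the 26 alternatives, the others lying between 2.63e-06 and 0.00207). Within clone 4 it was 0.94 (adjusted p = 7.08e-05) and within clone 8 it was 0.54 (adjusted p = 0.111).

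Max (ENSMUSG00000059436, chr12:76937269-76962201, minus strand) encodes the shared partner without which the other members bind DNA poorly. Its level was 31.2, 29.4, 27.5 and 28.2 CPM at 0h, then 31.9, 31.1, 38.7 and 41.9 CPM at 2h. These groups overlapped through clone 4, and the change of 0.33 ± 0.10 had an adjusted p of 0.0143. Within clone 4 the 2h change was 0.07 (adjusted p = 0.84) and within clone 8 it was 0.53 (adjusted p = 0.00101). The 2h call was lost in 5 of the 26 alternatives, among them those without 0h clone 8 replicate 1 (adjusted p = 0.0728), without 0h clone 8 replicate 2 (0.0991) and without 2h clone 8 replicate 2 (0.0748), with a range of adjusted p from 0.00382 to 0.735.

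At 4h Max was at 35.3, 36.9, 45.4 and 51.3 CPM, above every 0h library, with a change of 0.53 ± 0.10 and an adjusted p of 7.94e-05. Within clone 4 alone the 4h change was 0.26 with no call (adjusted p = 0.134), and within clone 8 it was 0.79 (adjusted p = 1.37e-05). In rev it was 39.1, 42.6, 42.6 and 57.7 CPM, with no call against 4h (log2 difference 0.09, adjusted p = 0.574). Against 0h the rev group was higher by 0.62 ± 0.10 (adjusted p = 2.95e-05), and by 0.55 without clone 8 replicate 2 of rev, the library with 80.4% of its counts in 8 models.

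Mnt (ENSMUSG00000000282, chr11:74830920-74845725, plus strand) encodes the most widely expressed repressor of the network, an antagonist of Myc in proliferating cells. Its level at 0h was 40.7, 37.9, 27.3 and 30.1 CPM, with clone 8 below clone 4. At 2h it was 60.9, 49.9, 52.5 and 52.3 CPM and at 4h 49.5, 49.7, 49.6 and 50.3 CPM, all above every 0h library. The log2 fold change was 0.70 ± 0.09 at 2h (adjusted p = 3.65e-07) and 0.56 ± 0.09 at 4h (adjusted p = 1.27e-05). In rev Mnt was at 60.9, 59.5, 58.5 and 69.9 CPM, above every 0h and every 4h library. Against 0h this was 0.87 ± 0.09 higher (adjusted p = 2.08e-08).

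Against 4h the rev group of Mnt was higher by 0.31 ± 0.09 (adjusted p = 0.0148), but this further rise depended on the processing. With library size alone as the scaling it turned to -0.13 (adjusted p = 0.68), under which the median of all genes moved to -0.41. Over the 26 alternatives its adjusted p ran from 0.00334 to 0.68. It was not called in 6 of them, among them those without 4h clone 4 replicate 1 (0.0643), without 4h clone 4 replicate 2 (0.0575) and without rev clone 8 replicate 2 (0.0569). Within clone 4 alone it was 0.28 (adjusted p = 0.0733) and within clone 8 alone 0.33 (adjusted p = 0.0938), with no call in either.

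The 4 Mxd genes gave 1 call in the 5 comparisons between groups, that of Mxd3 between 4h and rev. Mxd3 (ENSMUSG00000021485, chr13:55325168-55329823, minus strand) encodes a repressor found in cells in S phase. It was at 4.07, 3.28, 2.25 and 2.03 CPM at 0h, 2.07, 4.82, 2.53 and 1.92 CPM at 2h, and 2.2, 2.10, 1.33 and 1.84 CPM at 4h, so these groups overlapped. Its level in rev was 3.31, 3.91, 4.14 and 3.15 CPM, above every 4h library, a rise of 0.93 ± 0.27 on the log2 scale (adjusted p = 0.0156). Against 0h, neither 4h (-0.56, adjusted p = 0.119) nor rev (0.36, adjusted p = 0.32) was called. The levels of Mxd3 rest on few counts, 7 to 31 per library. The call was lost in 4 of the 26 alternatives, which were library size alone (0.54, adjusted p = 0.242), no clone covariate (0.0621), a covariate for counts in the 8 models (0.151) and leaving out rev clone 8 replicate 1 (0.0999), with a range of adjusted p from 0.00989 to 0.242. Neither clone alone gave a call, with 0.71 in clone 4 (adjusted p = 0.187) and 1.31 in clone 8 (adjusted p = 0.0883). Mxd3 shares 105 exon bases, 4.43% of its exon length, with Prelid1 on the opposite strand (121 to 816 counts), and reads there cannot be assigned because the strand setting of the counting is not given in the sources used here.

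Mxd1 (ENSMUSG00000001156, chr6:86647042-86669161, minus strand), a repressor known to come up in differentiating cells, ranged from 2.82 to 4.82 CPM over all libraries, and its means in the 0h, 2h, 4h and rev groups were 3.91, 3.99, 3.62 and 3.28 CPM. Mxd4 (ENSMUSG00000037235, chr5:34173883-34187720, minus strand) had means of 2.38, 1.87, 2.188 and 1.81 CPM, from 3 to 26 counts per library. Mxi1 (ENSMUSG00000025025, chr19:53310518-53375810, plus strand) stood highest of the 4 per length, with means of 14.4, 13.04, 15.0 and 15.4 CPM. Mxd4 and Mxi1 share exon bases with opposite-strand gene models that had 0 counts. The groups overlapped for all 3 genes in every comparison. At these depths a small or moderate change in Mxd1 or Mxd4 could be missed. The SE of the log2 fold change at 4h was 0.21 for Mxd1 and 0.26 for Mxd4, against 0.13 for Mxi1. With a like SE of 0.27, Mxd3 was called in rev against 4h at 0.93.

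Mga (ENSMUSG00000033943, chr2:119897228-119969581, plus strand), the scaffold of PRC1.6, had no call in any comparison between groups. Its mean was 196 ± 21.8 CPM (SD, n = 4) at 0h, 194 ± 21.1 by 2h, 193 ± 18.01 at 4h and 197.5 ± 18.8 in rev. The log2 difference from 0h was -0.01 ± 0.07 for 2h, -0.02 ± 0.07 for 4h and 0.02 ± 0.07 for rev, with adjusted p of 0.97, 0.888 and 0.862. With counts of 397 to 3136 per library this was also the most precisely measured member.

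**Figure D2:**
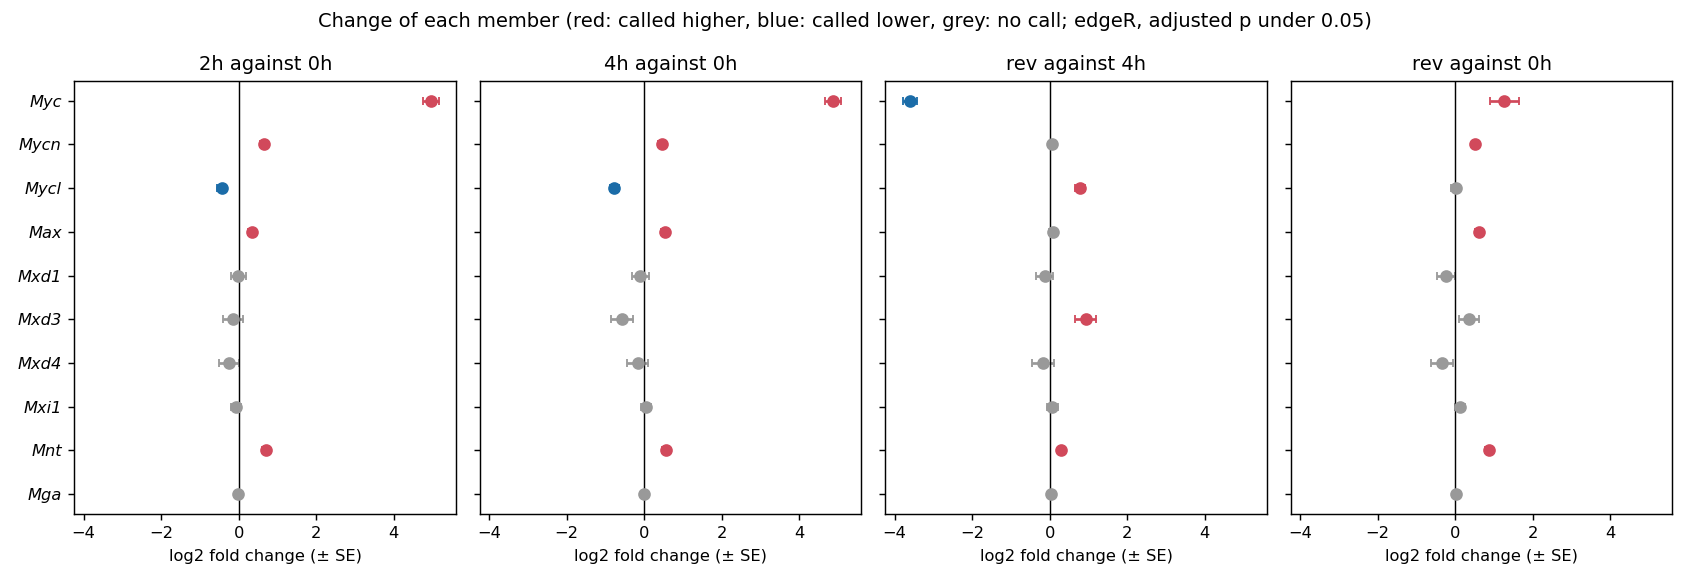
Log2 fold change of each member with its SE in 4 comparisons (2h and 4h against 0h, rev against 4h, rev against 0h), from edgeR fits to all 16 libraries. Red points were called higher, blue lower and grey had no call. Myc moves by 4.96 at 2h and -3.60 in rev against 4h, while every other member stays within 1 unit of 0.

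Counted over the network, the reversal comparisons differed by gene. Against 4h, 3 members were higher in rev (Mycl, Mxd3 and Mnt) and 1 was lower (Myc), where 7.93% of all genes were higher and 8.43% lower. Against 0h, 4 members were higher in rev (Myc, Mycn, Max and Mnt) and 0 were lower, where 12.4% of all genes were higher and 9.86% lower. From 2h to 4h no member was called by edgeR or by DESeq2, where 3.80% of genes were higher and 3.52% lower, and 3 members had an unadjusted p under 0.05 (Mycl, Mycn and Max). Their adjusted p-values were 0.11, 0.213 and 0.221.

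Clone 8 was higher than clone 4 for Myc by 0.73 ± 0.11 on the log2 scale (adjusted p = 4.57e-06), for Max by 0.24 ± 0.07 (adjusted p = 0.00909) and for Mga by 0.21 ± 0.05 (adjusted p = 0.00197), and 0 members were lower, where 29.1% of all genes were called in either direction. With library size alone no member was called: the difference of Myc was 0.45 (adjusted p = 0.102), and those of Max and Mga turned to -0.04 and -0.05. In the tests of a different response between clones no member was called by edgeR, where 0.0901% of genes were called for 2h against 0h, 0.311% for 4h against 0h and 0.00819% for rev against 4h. The smallest p-values at 4h were those of Max, whose change was 0.52 larger in clone 8 (unadjusted p = 0.00516, adjusted p = 0.189), and Mnt, 0.44 larger (unadjusted p = 0.00967, adjusted p = 0.235). Myc differed by -0.70 at 4h with a wider error (unadjusted p = 0.335, adjusted p = 0.756). At 2h Max had 0.46 (unadjusted p = 0.0138, adjusted p = 0.381), and for rev against 4h Mxi1 had -0.54 (unadjusted p = 0.0397, adjusted p = 0.808). Within clone 4 Myc changed at 4h by 5.37 and within clone 8 by 4.67, and Mycl by -0.84 and -0.64.

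To compare levels between genes, CPM was divided by the length of the merged exons in kilobases, which gives RPKM. At 0h the order from high to low was Mga (12.8 RPKM), Mycn (9.64), Max (8.08), Mnt (7.35), Mycl (4.41), Mxi1 (2.11), Mxd3 (1.23), Mxd1 (0.553), Myc (0.378) and Mxd4 (0.281). The library ranges of Mycn, Max and Mnt overlapped from one to the next, as did those of Mxi1 and Mxd3 and those of Mxd1, Myc and Mxd4. The order also depends on the length used. For Max the merged exons span 3598 bases and the longest coding transcript 1942, for Mxd4 8483 and 3872, and for Mga 15340 and 13931. Ranks by coding transcript length are not given, so the places of Mga, Max, Myc and Mxd4 are not firm. Myc ranked 9 of 10 at 0h, 3 of 10 at 2h with 12.5 ± 4.21 RPKM (SD, n = 4) and 4 of 10 at 4h with 11.5 ± 2.89, and in rev it ranked 8 of 10 with 0.852 ± 0.389. At 2h and at 4h the ranges of Mycn, Mga, Myc, Mnt and Max overlapped from one to the next, so the order among them is not firm. In rev the range of Myc overlapped those of Mxd3 and Mxd1.

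Summed over Myc, Mycn and Mycl, the transcript level went from 14.4 ± 1.82 RPKM (SD, n = 4) at 0h to 30.7 ± 5.03 at 2h and 27.4 ± 2.70 at 4h, and was 19.3 ± 0.498 in rev. The lowest 2h or 4h library (24.8) lay above the highest 0h library (16.3). At 0h Myc made up 2.54% ± 1.45 of that sum, at 2h 39.8% ± 7.07, at 4h 41.5% ± 6.76, and in rev 4.45% ± 2.17. Mycn went from 66.6% of the sum at 0h to 48.8% at 4h and 72.5% in rev, and Mycl from 30.9% to 9.65% and 23.0%. The summed level of Mxd1, Mxd3, Mxd4, Mxi1 and Mnt was 11.5 ± 1.68 RPKM at 0h, 15.5 ± 0.836 by 2h, 14.5 ± 0.328 by 4h and 17.9 ± 0.825 in rev, most of it Mnt. The ratio of the Myc sum to this sum was 1.26 ± 0.184 at 0h, 1.99 ± 0.386 by 2h, 1.88 ± 0.167 by 4h and 1.08 ± 0.0384 in rev. These sums are given as descriptions of RNA with no test, and they say nothing of the proteins, whose turnover is fast and regulated.

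**Figure D3:**
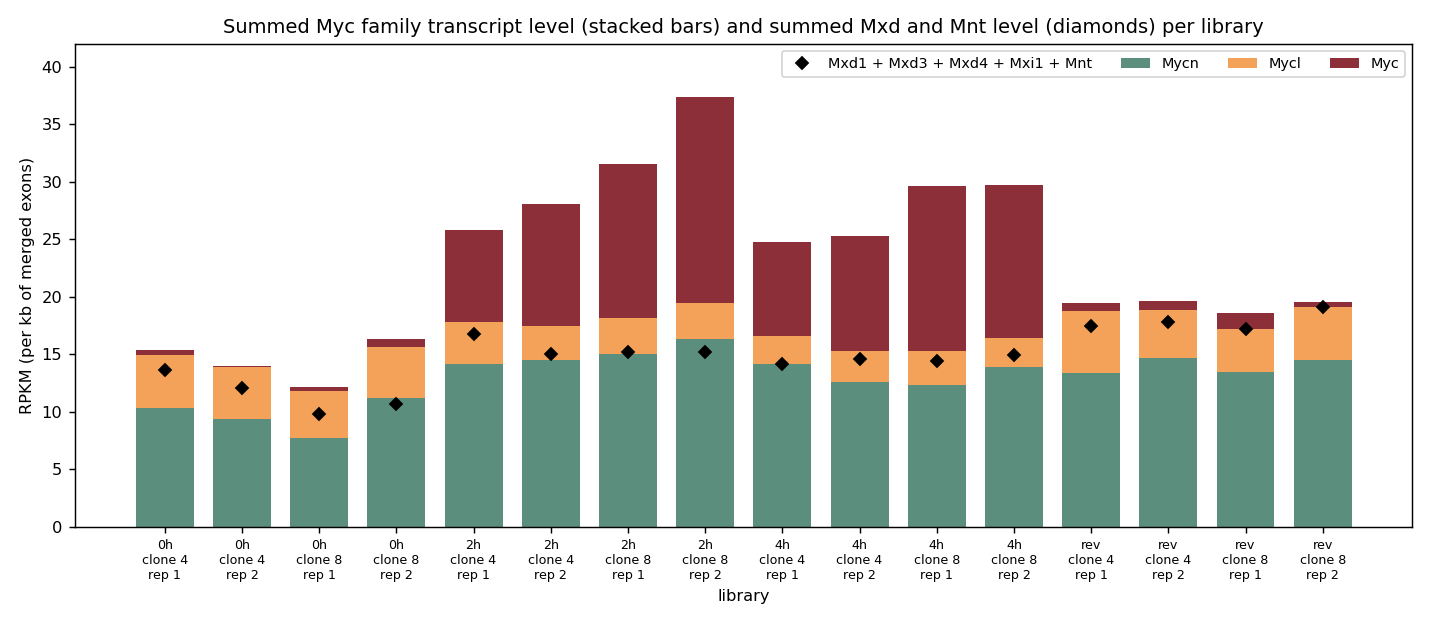
Stacked RPKM of Mycn, Mycl and Myc in each of the 16 libraries, with a diamond for the summed RPKM of Mxd1, Mxd3, Mxd4, Mxi1 and Mnt in the same library. The stack is 12.1 to 16.3 RPKM at 0h and 25.8 to 37.4 RPKM at 2h, and the Myc block is nearly gone again in rev.

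The genes with a profile closest to Myc over the 8 combinations of group and clone, by Euclidean distance between centred log2 CPM profiles, were Phlda1, Dusp6, Id3, Hs3st3b1 and Egr3. Their distances were 1.57, 1.73, 2.01, 2.11 and 2.45, and their Pearson correlations with Myc were 0.99, 0.97, 0.96, 0.97 and 0.92 over the 8 points, which share libraries. Dusp6 encodes a phosphatase that acts on ERK, Id3 a DNA-binding inhibitor and Egr3 a zinc finger transcription factor. For Mycl, the member other than Myc with the smallest adjusted p at 4h, the closest profiles were those of Slc16a6, Rab11fip4, Bbs1, Klf8 and Dleu2, at distances of 0.24 to 0.29.

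The network's wider set was described from 9 lists of genes, whose counts at 4h stand against 17.2% of all tested genes called higher and 16.8% lower, starting with the MLX arm, whose E-box factors sense glucose. There, 1 of 3 genes rose at 4h and 1 fell. Mlxipl, which encodes ChREBP, fell from 21.2 ± 3.24 to 10.9 ± 2.11 CPM by 4h (SD, n = 4 each), a log2 change of -0.94 ± 0.13 (adjusted p = 5.5e-07). It rose to 15.6 ± 2.55 CPM in rev, 0.54 above 4h (adjusted p = 0.00534). Mlxip, which encodes MondoA, rose by 0.52 ± 0.11 at 4h (adjusted p = 0.000326).

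Among 12 Myc coactivators and partners, 3 rose and 2 fell at 4h, near the shares over all genes (17.2% higher, 16.8% lower). The list median was 0.10, against -0.02 over all genes. Trrap, a scaffold of acetyltransferase complexes, rose by 0.27 (adjusted p = 0.00855) and Cdk9, the kinase of the elongation factor P-TEFb, by 0.21 (adjusted p = 0.0323). Zbtb17, which encodes the Myc partner Miz1, fell by 0.33 on the log2 scale (adjusted p = 0.0311). Of 11 corepressors of Mxd and Mnt, 4 rose and 1 fell at 4h, where 17.2% and 16.8% of all genes did, with a median of 0.20. The named ones were Arid4b (0.40), Rbbp7 (0.38) and Sin3a (0.31), all parts of Sin3 complexes, with adjusted p of 0.00134, 0.000151 and 0.00108.

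Of 13 genes for enzymes and partners that control Myc protein turnover, 8 rose and 1 fell at 4h, against the same 17.2% and 16.8%, with a median of 0.21. Skp2, which encodes a ubiquitin ligase subunit that acts on Myc and on p27, rose from 22.6 ± 2.71 to 41.8 ± 5.43 CPM by 4h (log2 0.91 ± 0.10, adjusted p = 3.8e-09). It fell to 26.7 ± 2.58 CPM in rev, by 0.66 (adjusted p = 7.47e-06). Usp28, which encodes a deubiquitinase that stabilises Myc, fell by 0.42 on the log2 scale at 4h (adjusted p = 7.56e-05) and was not called between 4h and rev. Usp36, a nucleolar deubiquitinase of Myc, rose by 0.34 (adjusted p = 0.00193).

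Of the 10 partners of Mga and Max in PRC1.6, 2 rose at 4h and 0 fell, a count of rises near the 17.2% over all genes, with a median of 0.13. L3mbtl2, a histone-binding subunit, rose from 40.4 ± 2.69 to 64.0 ± 8.93 CPM (log2 0.65 ± 0.08, adjusted p = 3.71e-08). Rnf2, the catalytic ubiquitin ligase, rose from 48.8 ± 3.63 to 71.5 ± 6.42 CPM (log2 0.55 ± 0.09, adjusted p = 5.35e-06). Both fell in rev, by 0.22 (adjusted p = 0.0435) and 0.41 (adjusted p = 0.00107). Of the germline genes that PRC1.6 is known to silence, 9 of 16 passed the filter on low counts, and 2 of these rose at 4h and 1 fell, near the 17.2% and 16.8% over all genes. Sycp1, of the synaptonemal complex, rose by 0.56 (adjusted p = 0.01), Dazl, an RNA-binding protein of germ cells, by 0.39 (adjusted p = 0.0007), and Smc1b, a meiotic cohesin, fell by 0.70 (adjusted p = 0.000192).

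Of 33 genes known as targets that Myc activates, 13 rose at 2h and 23 at 4h, and 0 fell at either time. Over all genes 11.4% were higher and 9.68% lower at 2h, and 17.2% and 16.8% at 4h. Their median log2 change was 0.19 at 2h and 0.32 at 4h, against -0.02 over all genes at both times. Hk2, a hexokinase, rose from 111 ± 10.5 to 192 ± 22.4 CPM at 4h (log2 0.78 ± 0.08, adjusted p = 6.12e-09). Rrs1, a ribosome assembly factor, rose from 31.8 ± 2.85 to 51.9 ± 6.09 CPM (log2 0.70 ± 0.09, adjusted p = 1.96e-07). Ccnd2, cyclin D2, went from 0.688 ± 0.441 to 15.6 ± 10.2 CPM (log2 4.23 ± 0.28, adjusted p = 3.69e-14). Its 0h mean lies within the range that 3 counts equal in the 0h libraries, 0.321 to 0.815 CPM, so the size of this fold is less firm than its direction. Against 4h, rev gave 6 lower and 0 higher of these 33, and against 0h it gave 17 higher and 0 lower, where 8.43% of all genes were lower than at 4h and 12.4% higher than at 0h.

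Of 10 genes known as targets that Myc represses, 9 were tested, of which 5 fell and 1 rose at 4h, where 16.8% of all genes fell and 17.2% rose, with a median of -0.49. Gadd45b, a stress-induced gene, fell from 11.7 ± 2.90 to 5.42 ± 1.17 CPM (log2 -1.09 ± 0.16, adjusted p = 1.83e-06) and rose in rev to 16.8 ± 1.55 CPM (adjusted p = 7.32e-10 against 4h). Ndrg1 fell by 0.91 on the log2 scale (adjusted p = 0.00562). Gadd45a rose instead, by 1.03 (adjusted p = 0.00586), and fell by 2.00 in rev (adjusted p = 5.22e-05). The neighbours of Myc on chromosome 15, Pvt1 and Fam84b, had no call in any comparison, and Pvt1 was at 1.21 ± 0.668 CPM at 0h and 1.74 ± 0.487 at 4h.

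**Figure D4:**
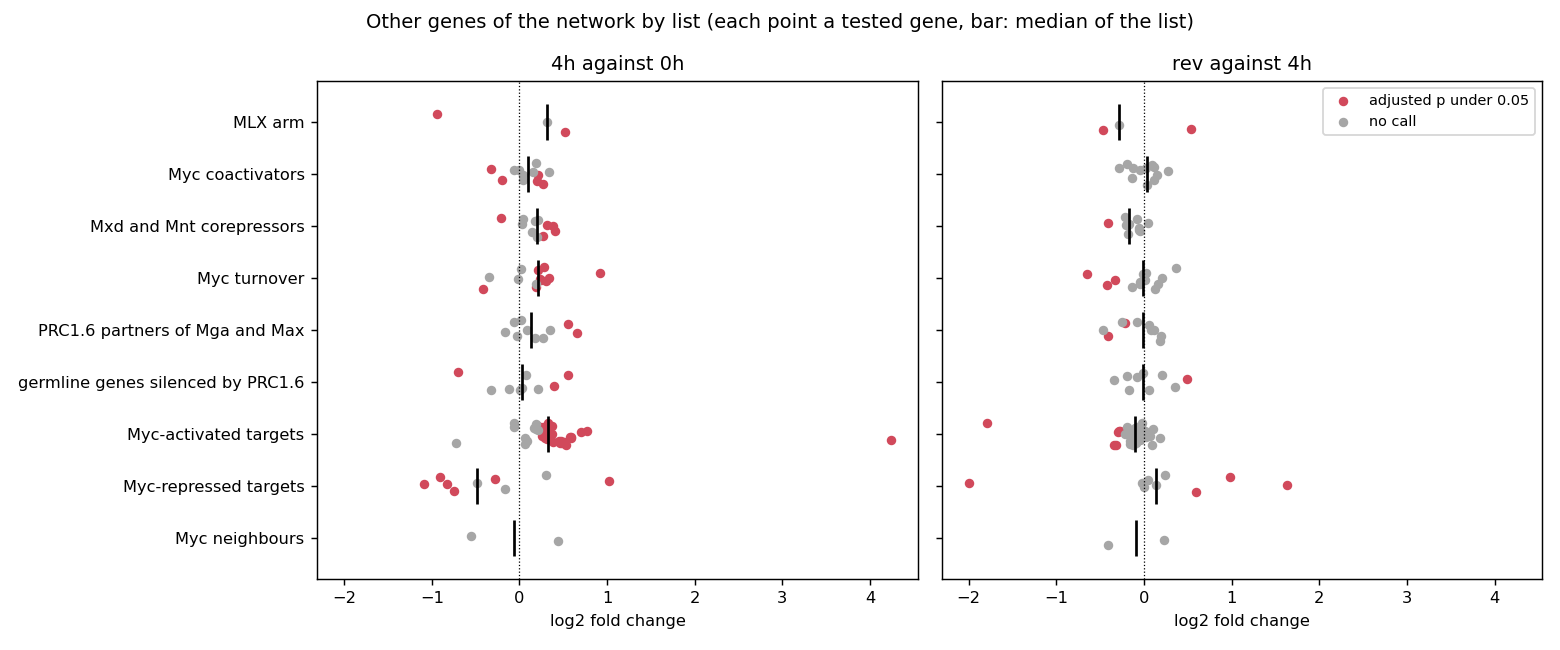
Log2 fold change of each tested gene of the 9 lists at 4h against 0h (left) and in rev against 4h (right), with red points for adjusted p under 0.05, grey for no call and a bar at each list's median. At 4h the bar of the Myc-activated targets lies at 0.32 and that of the Myc-repressed targets at -0.49, and in rev they lie at -0.10 and 0.13.

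Without a composition factor, under scaling by library size alone, Myc was the only member still called after 2 h and after 4 h of 4OHT, and also between 4h and rev, and 1 rather than 13 of the 33 activated targets was called higher at 2h, 5 rather than 23 at 4h and 1 rather than 17 in rev against 0h. At 4h 1 rather than 8 of the turnover genes was called higher and 0 rather than 1 lower, and 2 rather than 5 of the repressed targets were called lower. The coactivators, corepressors and germline genes then had 0 calls at 4h in either direction. Under that scaling the log2 change at 2h of Mycn was 0.65, of Mycl -0.45, of Max 0.32 and of Mnt 0.70, and at 4h they were 0.57, -0.64, 0.63 and 0.68, with adjusted p from 0.0556 to 0.735. In rev against 0h, Mycn was then at 0.21, Max at 0.29, Mnt at 0.55 and Myc at 0.94, with no call. In rev against 4h, Mycl was at 0.35 and Mxd3 at 0.54 with no call, while Myc was at -4.01 and called. The split of calls over all genes then also moved, from 2098 higher and 2048 lower to 554 and 327 at 4h, from 464 and 430 to 88 and 12 between 2h and 4h, from 969 and 1030 to 57 and 1671 in rev against 4h, and from 1518 and 1204 to 105 and 905 in rev against 0h. The median of all genes lay at 0.09, 0.10, -0.41 and -0.32 in those 4 comparisons. The share of counts in the 8 most abundant models was 58.6% to 63.4% at 0h, 42.01% to 62.4% at 4h and 55.1% to 80.4% in rev. With that share as a covariate, 2 rather than 4 members were called in rev against 4h.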

How the data were processed

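The deposited table held raw counts of reads per Ensembl gene for 16 samples, 4 per group, per the labels; all its values were whole. STAR 2.5.3a, bcl2fastq 2.19.1 and the build mm10 are named in the submitters' processing notes. The counting tool, annotation and strand setting are not given in the sources used here. Symbols, positions and exon lengths came from GENCODE M21 (GRCm38), in which 147 identifiers had no match, and promoters from RefSeq (GRCm38.p6).

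The fits used edgeR 4.0.16 and limma 3.58.1 under R 4.3.3. Genes were kept by filterByExpr over the 4 groups, scaled by TMM and fitted with group and clone over all 16 libraries, so the groups share 1 estimate of the spread. Quasi-likelihood tests were two-sided, with Benjamini-Hochberg adjustment over the 12215 genes at 0.05, and the SE was the absolute log2 fold change over the square root of F. A fit of 8 group and clone cells gave differences between clones and within-clone values. A prior count of 2 was used for log2 CPM. CPM and RPKM were computed from the counts. Separate origin of the samples is not stated beyond the 2 clones, so p-values measure the spread between these samples, which may be technical.

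The members and lists were chosen with earlier results of these data known. From each list at most the 3 called genes with the largest absolute change at 4h against 0h were named. Genes with profiles close to Myc and to the other member with the smallest adjusted p at 4h were the 5 nearest, and Pvt1 was named after its values were seen. Alternatives were RLE size factors, library size alone, no filter or a mean of at least 1 CPM, no clone covariate, a replicate block, only the 2 groups compared, removal of the 8 most abundant models or their percent of counts as a covariate, DESeq2 1.42.0 and leaving out each library. Coding transcript length was added after seeing the data. The tests were also run on simulated counts with changes placed at 4h only. Those counts held no clone effect and no uneven share of the abundant models, so they could not check the limits from clone and scaling. One check on the samples is not reported here.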

Additional observations from a re-analysis of the deposited data

Results flagged for a closer look

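Among the 40 member and group combinations (10 genes in 4 groups of 4 libraries), 1 had a library far from the other 3. Mxd4 at 0h was at 1.45 CPM in clone 8 replicate 1, while the other 0h libraries lay between 2.67 and 2.72 CPM. The rule that marks such a library marks about 1 in 20 groups by chance. Mxd4 had no call in any comparison, and the counts behind these values were 9 to 25.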

How the results depend on the processing

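The number of members called moved by more than 1.5 times in these settings. With library size alone it was 1 instead of 5 at 2h, 1 instead of 5 at 4h, 1 instead of 4 in rev against 4h, 0 instead of 4 in rev against 0h and 0 instead of 3 between clones. In rev against 4h it was 2 without clone as a covariate and 2 with the percent of counts in the 8 models as a covariate. Library size alone also turned Mnt in rev against 4h to -0.13 and the clone differences of Max and Mga to -0.039 and -0.046. Its construction leaves out the correction for abundant models. Leaving out 1 library at a time gave 4 to 5 members at 2h, 5 at 4h, 0 between 2h and 4h, 3 to 4 in rev against 4h and 3 to 4 in rev against 0h. DESeq2 called 5, 5, 0, 4 and 4. With a replicate block the counts were also 5, 5, 0, 4 and 4, and no member's call changed. The labels do not say that equal numbers mark paired samples, and deviations of same-numbered samples had a mean correlation of 0.0037 over 12 pairs, none over 0.1. Of the 90 counts of list genes by direction, 43 moved with library size alone, 2 without the 8 models and 0 with RLE factors. The sums in RPKM depend on the total they are scaled to: without the 8 models, which shrinks every total, the Myc sum was 36.8, 78.5, 69.98 and 49.4 in 0h, 2h, 4h and rev, and the Mxd and Mnt sum 29.4, 39.8, 37.1 and 45.8. With library size alone the Myc sum was 30.9 in 4h and 16.5 in rev. The Mxd and Mnt sum was then 16.6 in 4h and 15.2 in rev, where the main analysis gave 14.5 and 17.9, so its direction turned. Their ratio moved only in rev, to 1.14 with coding transcript length, of the 4 alternatives tried. Depth limits Myc at 0h, where 3 counts equal 0.321 to 0.815 CPM, and Mxd1, Mxd3 and Mxd4 throughout.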
